A study of Mus musculus with 4 samples.

Results

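Neutrophils that carried transcripts of the chemokine gene Ccl3 were examined in mouse heart grafts profiled by single-cell RNA sequencing. The cells were chosen by their unique molecular identifiers (UMIs, the counted transcript molecules). A cell had to contain over 200 genes and under 20% mitochondrial UMIs, to have 5% or more of its UMIs from S100a8 and S100a9 together, and to hold at least 1 UMI of Csf3r, at least 1 UMI of Ccl3 and 0 UMIs of the endothelial gene Cdh5. Of 53824 deposited cells, 44626 passed the filters on genes and mitochondrial UMIs, and 1128 met the whole rule (2.53% of the filtered cells). These are called Ccl3-positive neutrophils below, and the 546 cells that met every other condition but held 0 Ccl3 UMIs are called Ccl3-negative neutrophils.

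The study placed donor hearts in the abdomen of C57BL/6J recipient mice and collected the grafts on day 5. The labels list 2 allogeneic grafts, from donors of strain Balb/C, and 2 syngeneic grafts, from donors of strain C57BL/6J, and they name no drug or genetic change in either group. According to the study's methods the mice were young adult males, and the grafts were dissociated enzymatically at body temperature before encapsulation, a step that all grafts shared. The deposited matrix joins 4 libraries, numbered here 1 to 4 by the suffix of their cell barcodes, and no label used here ties a suffix to a graft. The 4 libraries are therefore described side by side, allogeneic and syngeneic grafts were not compared, and no statistical test was made, since cells of a library are not replicates.

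Neutrophils are short-lived granulocytes that leave the blood for injured or infected tissue. S100A8 and S100A9 form calprotectin, an abundant protein of their cytosol, and the product of Csf3r is the receptor for granulocyte colony-stimulating factor, which drives their production and survival. CCL3 (macrophage inflammatory protein 1 alpha) is a CC chemokine that binds CCR1 and attracts monocytes, T cells and other leukocytes, and its gene lies beside that of its close relative CCL4. Activated neutrophils are known to make chemokines and cytokines, largely through transcription factors of the NF-kB family.

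The libraries stood apart in how many of these cells they held. Library 2 contributed 984 of the 1128 Ccl3-positive neutrophils (87.2%) although it held 25.8% of all deposited cells. Library 4 contributed 83, library 3 contributed 54 and library 1 contributed 7. Any value pooled over libraries is thus mainly a value of library 2, so levels are given for each library. The libraries held 13112, 13907, 13500 and 13305 cells with 96020294, 115162601, 138892048 and 166079145 UMIs in order. Ccl3-positive neutrophils had medians of 4485, 4628.5, 3585 and 3680 UMIs per cell in libraries 1 to 4, against 4016, 4790.5, 2810 and 3334 in the Ccl3-negative cells, so depth was close between the groups in library 2 and somewhat higher in the positive cells elsewhere. Median mitochondrial shares of the positive cells were 3.24%, 1.94%, 9.10% and 3.75%, highest in library 3. Of 616 cells whose barcode sequence occurred in more than 1 library, 12 were Ccl3-positive neutrophils.

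The threshold on S100a8 and S100a9 cut through a continuous range. Their joint share of UMIs in members ran from 5.00% to 42.1% with a median of 12.6%, and the median in Ccl3-negative neutrophils was 16.7%. Between 5% and 6% lay 103 members, and 81 cells between 4% and 5% met the other conditions and were left out. Exactly 1 Ccl3 UMI was held by 221 members and exactly 2 by 115, next to the 546 cells with 0. The Cdh5 condition removed 604 cells that otherwise met the neutrophil conditions, 571 of them in library 2, and 431 of the 604 held Ccl3.

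Neutrophil markers that the rule did not use were present in members of all 4 libraries. All 9 of these markers (Cxcr2, Retnlg, G0s2, Il1r2, Mmp9, Hdc, Ly6g, Trem1 and Mxd1) had UMIs in every library, with summed levels of 23867, 35984, 8339 and 13273 UMIs per 1000000 non-mitochondrial UMIs (CPM, the unit of every level below). The 4 eosinophil markers found in the matrix (Epx, Prg2, Ear1 and Ccr3) were at or near 0, with sums of 0, 0.414, 5.35 and 0 CPM. The name Siglecf, also on that list, was not found. All 5 mast cell or basophil markers (Cpa3, Mcpt8, Mcpt4, Ms4a2 and Fcer1a) were at 0 in every library. The 9 neutrophil markers exceeded the summed markers of these other granulocytes in every library.

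Transcripts of other cells were nevertheless measurable in them. The 10 macrophage markers summed to 1145, 275, 1577 and 1520 CPM in libraries 1 to 4, with C1qa the highest in the mean of libraries 2 and 4, and 63.8% of members in library 2 and 97.6% in library 4 held at least 1 UMI of this list. Endothelial markers other than Cdh5 summed to 266, 2428, 871 and 149 CPM, led by Fabp4, and fibroblast markers to 479, 161, 1240 and 201 CPM. The Ccl3-negative neutrophils held similar amounts of the macrophage list, at 1157, 315, 1292.5 and 1171 CPM. Monocyte markers summed to 373, 549.5, 289 and 3452 CPM in the positive cells and T/NK markers to 0, 3.31, 16.0 and 250.1 CPM, both highest in library 4. The comparisons below were repeated without cells that held UMIs of C1qa, C1qb, C1qc or Csf1r. Library 4 dropped out of that repeat because too few of its cells remained, so the part of macrophage transcripts in library 4, and of the other transcripts in any library, was not tested.

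The share of neutrophils with a Ccl3 UMI differed between libraries. It was 14% in library 1 (7 of 50 cells, exact 95% interval 5.82 to 26.7%), 72.6% in library 2 (984 of 1356, 70.1 to 74.9%), 58.7% in library 3 (54 of 92, 47.9 to 68.9%) and 47.2% in library 4 (83 of 176, 39.6 to 54.8%). At full depth library 1 lay below the others and library 2 above libraries 3 and 4 beyond counting error, which is all that these intervals cover. Droplets also collect free RNA, so the same share was taken in cells of an endothelial gate, which should lack the gene. The gate required at least 2 Cdh5 UMIs, 0 Ptprc UMIs and under 1% of UMIs from S100a8 and S100a9. That last limit left out endothelial cells with much neutrophil RNA, so the gate can understate free RNA. In this gate the share was 1.47%, 21.4%, 6.16% and 16.8%, at median depths of 5985.5, 7418, 8397 and 9776 UMIs. It lay below the neutrophil share in every library though the endothelial cells were deeper. At 1000 UMIs drawn from every cell, the shares were 8%, 49.2%, 43.5% and 35.2% in neutrophils and 0.167%, 4.18%, 1.06% and 1.98% in endothelial cells, with 13 neutrophils of library 2 left out as too shallow. At that depth the neutrophil intervals of libraries 2 (46.5 to 51.9%) and 3 (33.2 to 54.2%) overlapped. Library 4 (28.2 to 42.8%) stayed below library 2, and library 1 (2.22 to 19.2%) below all others. Single members with 1 Ccl3 UMI cannot be told apart from cells that caught free RNA.

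**Figure D1:**
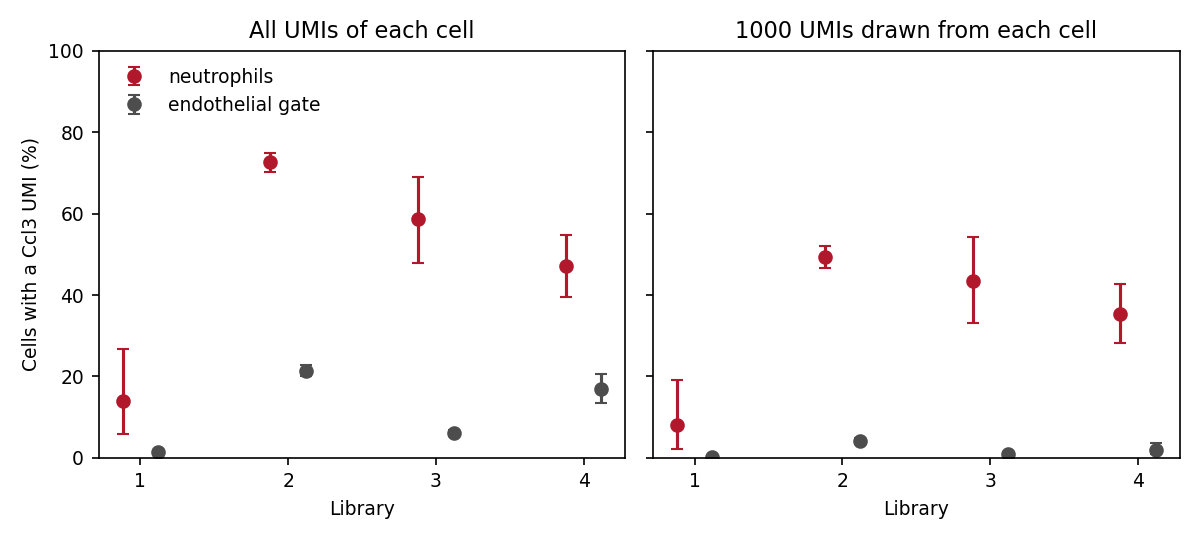
Share of cells with at least 1 Ccl3 UMI (percent, y axis) in neutrophils and in the endothelial gate of each library (x axis), at full depth (left) and at 1000 UMIs per cell (right). Points are shares and bars exact 95% intervals of counting error. Neutrophils lie between 14% and 72.6% at full depth, and above the endothelial gate in all 4 libraries at both depths.

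Ccl3 itself (chr11:83647844-83649355, minus strand of GRCm38) was spread unevenly over the members. Its level was 4369, 3708, 2678 and 4274 CPM in Ccl3-positive neutrophils of libraries 1 to 4, with counting intervals of 3726 to 5091, 3654 to 3763, 2449 to 2923 and 4046 to 4511 CPM. Members held a median of 6 Ccl3 UMIs and at most 238, and the 113 cells with most Ccl3 held 48.3% of all Ccl3 UMIs of the members. Because Ccl3 chose the cells, these levels are a description.

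The share of all Ccl3 UMIs that lay in these neutrophils depended on the library. It was 3.74%, 26.1%, 3.80% and 2.55% of the Ccl3 UMIs of filtered cells in libraries 1 to 4, and 14.5% over all libraries. The cells were chosen for holding Ccl3 and the gates that follow were not, so these shares are not compared. A macrophage gate (at least 3 UMIs of C1qa, C1qb and C1qc, with Csf1r) held 14.4% of the cells and 22.2% of the Ccl3 UMIs, and a T/NK gate 3.72% and 11.6%. Both gates had the same limit on S100a8 and S100a9 as the endothelial gate. Among cells with at least 1 Ccl3 UMI, Ccl3 stood at 864, 1535, 856 and 333 CPM in macrophages of libraries 1 to 4. It stood at 1654.5 CPM in T/NK cells of library 4. These levels are not ranked against the neutrophils, because Ccl3 chose the cells and depth differed. Macrophages with Ccl3 had medians of 13712 to 18139 UMIs, and those T/NK cells 14714. A deeper cell meets a 1-UMI minimum at a lower level. At 1000 UMIs per cell, with shallower cells left out, 27.5%, 31.8%, 28.3% and 11.9% of macrophages in libraries 1 to 4 held Ccl3. The neutrophil shares at that depth were 8%, 49.2%, 43.5% and 35.2%, so library 1 had the opposite order to the other libraries. In T/NK cells of library 4 the share was 11.9%. Ccl4 in the Ccl3-containing cells had no common order: it was 4075 CPM in neutrophils and 1623 CPM in macrophages of library 2, but 577 and 1954 CPM in those of library 3.

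**Figure D2:**
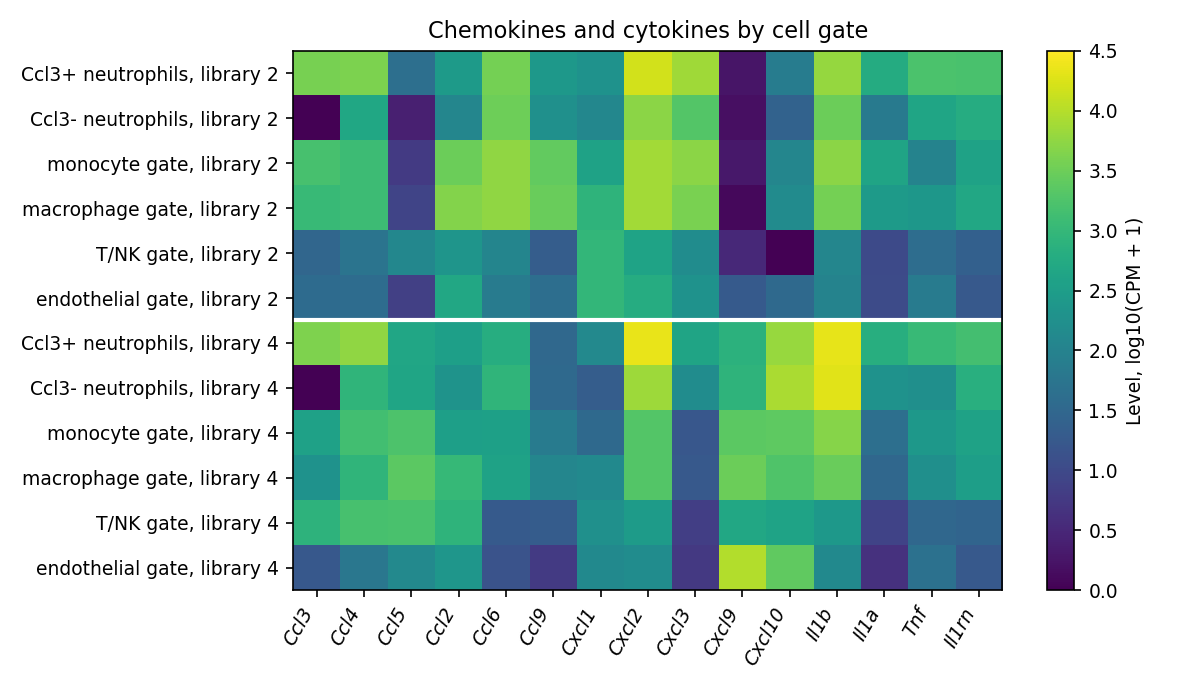
Levels of 15 chemokine and cytokine genes (columns) in the neutrophil groups and 4 comparison gates of libraries 2 and 4 (rows), as log10(CPM + 1) of summed UMIs. Cxcl2 is the brightest chemokine of Ccl3-positive neutrophils in both libraries, at 15652 and 22035 CPM, and Cxcl10 and Il1b are brighter in neutrophils of library 4 than of library 2.

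Ccl3-positive and Ccl3-negative neutrophils of the same library were then compared across the transcriptome, which asks what else a neutrophil with Ccl3 transcripts carries. Libraries 2 and 4 had at least 50 cells in both groups and were used, and for 3928 genes with a mean of at least 20 CPM the log2 ratio of (CPM + 10) was averaged over them with equal weight. In this comparison 66 genes (1.68%) were at least 2-fold higher in the mean and higher in both libraries, and 20 genes (0.509%) were at least 2-fold lower in the mean and lower in both. The median log2 ratio of all genes was 0.03, and 57.0% of genes had the same sign in both libraries. Of the 66 genes, 21 were 2-fold higher in each library by itself, and of the 20 genes, 4 were 2-fold lower in each. Calls were recomputed under 16 alternative settings, and genes described below whose calls were lost under several of them are pointed out. The higher genes were led by chemokines, cytokines and genes controlled by NF-kB, and the lower genes by granule and blood neutrophil genes.

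Ccl4 showed the largest ratio of all genes compared. Its level was 4075 CPM (4018 to 4132) in Ccl3-positive and 476 CPM (446 to 507) in Ccl3-negative neutrophils of library 2, and 5693 CPM (5430 to 5966) against 889.6 CPM (786 to 1003) in library 4. The mean log2 ratio was 2.87. Libraries 3 and 1, which were not used for the ratio, had 577 against 155 CPM and 1625 against 101 CPM, so the positive cells were higher in all 4 libraries. CCL4, another attractant of leukocytes, is encoded 13228 bases from Ccl3 (chr11:83662584-83664683, plus strand), and 64.4% of Ccl3-positive cells held a Ccl4 UMI against 38.3% of Ccl3-negative cells.

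CXCR2 is the receptor through which neutrophils recruit more neutrophils. Of the CXC chemokines that act on it, Cxcl1, Cxcl2 and Cxcl3 were past 2-fold higher in the mean as well and Cxcl5 was not. Cxcl5 was higher in library 2 beyond counting error, at 116 against 76.5 CPM. In library 4 it was 0 against 6.69 CPM, on 0 and 2 UMIs, too few to tell a direction. Cxcl2 stood at 15652 CPM in positive against 5151 CPM in negative cells of library 2 and at 22035 against 7017 CPM in library 4 (mean log2 ratio 1.63), and the order was the same in library 3 (14347 against 3595 CPM) and library 1 (10069 against 2934 CPM). It was the fifth most abundant transcript of the positive cells in both libraries 2 and 4. Cxcl3 was 7092 against 1937 CPM in library 2 and 419 against 150.5 CPM in library 4 (1.64), so that its level among positive cells differed between the libraries far more than its ratio. Cxcl1 was 196 against 118 CPM and 129.9 against 20.1 CPM (1.45). Of these 2 libraries only library 4 had a ratio of Cxcl1 past 2-fold, on 40 and 6 UMIs. Cxcl1 was 636 against 81.9 CPM in library 3 and had the opposite order in library 1, at 53.3 against 164 CPM. Its call was lost under 4 of the 16 alternatives, among them leaving out library 4.

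Cxcl1, Cxcl2 and Cxcl3 lie together on chromosome 5. They are shown with Ccl3 because the letters of the NF-kB consensus site occur in all of the CXC genes shown and not in Ccl3. Each stretch covers bases 120 to 31 before the RefSeq transcript start (GRCm38.p6, written 5′ to 3′ on the gene's strand), and capitals mark matches to the NF-kB consensus on either strand:
Ccl3, chr11:83649409-83649498, minus strand: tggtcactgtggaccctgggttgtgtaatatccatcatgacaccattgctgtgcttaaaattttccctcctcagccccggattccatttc
Cxcl1, chr5:90891125-90891214, plus strand: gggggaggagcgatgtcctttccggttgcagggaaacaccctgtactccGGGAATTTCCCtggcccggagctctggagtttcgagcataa
Cxcl2, chr5:90903779-90903868, plus strand: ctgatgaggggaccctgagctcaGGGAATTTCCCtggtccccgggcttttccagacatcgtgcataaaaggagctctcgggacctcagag
Cxcl3, chr5:90785981-90786070, plus strand: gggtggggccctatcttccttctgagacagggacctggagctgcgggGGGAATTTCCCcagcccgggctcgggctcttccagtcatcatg

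The 3 CXC genes carried the same 11 letters, GGGAATTTCCC, in which overlapping matches on the sequence count as 2. The match began 71, 97 and 73 bases before the start of Cxcl1, Cxcl2 and Cxcl3. Over the 250 bases before the start, 3.9% of 32851 mouse promoters held at least 1 match. Among genes of the comparison with a RefSeq promoter, 9 of 54 higher genes (16.7%) held a match, against 199 of 3135 genes compared (6.35%) and 1 of 13 lower genes (7.69%). The 9 were Cxcl1, Cxcl2, Cxcl3, Ccrl2, Tnfaip3, Nlrp3, Csf1, Lacc1 and Slc6a13. Most higher genes thus held 0 matches, among them Tnf, Il1a, Icam1 and Il1rn. The calls of Cxcl1, Csf1, Lacc1 and Slc6a13 were lost under 4, 8, 5 and 7 of the 16 alternatives, each also without library 4. Those of Ccrl2 and Nlrp3 were lost without library 2. Only Cxcl2, Cxcl3 and Tnfaip3 kept theirs under every alternative, so the share of 16.7% rests partly on unstable calls. A match is only a description of the letters and does not show binding.

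The other chemokines differed less or in 1 library only. Of 8 CC chemokines compared, Ccl4 and Ccl5 passed 2-fold and the median log2 ratio was 0.38, and of 9 CXC chemokines Cxcl1, Cxcl2 and Cxcl3 passed it with a median of 0.45. The libraries differed in direction, with 8 CC and 9 CXC chemokines above 0 in library 2 but 4 and 3 in library 4. Cxcl10, for example, was 75.1 against 25.0 CPM in library 2 and 6433 against 8361 CPM in library 4. Ccl2, which attracts monocytes through CCR2, was 286 against 115 CPM in library 2 and 344 against 201 CPM in library 4, just under the 2-fold size in the mean (0.99). The ratio of Ccl5 came from library 2 alone (42.8 against 1.53 CPM, on 207 and 3 UMIs), and in library 4 the groups were alike (461 against 441 CPM). Leaving out doublet-like cells brought the mean log2 ratio of Ccl5 to -0.038, and its call was lost under 6 alternatives. Ccl6 was abundant in both groups, at 3689 against 3216 CPM in library 2 and 633 against 863 CPM in library 4, with no common direction. Ccl9 was 251 against 177 CPM and 32.5 against 33.4 CPM, Ccl7 was 73.0 against 36.7 CPM and 65.0 against 53.5 CPM, and both stayed under the 2-fold size.

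Chemokine receptors were mostly alike in the positive and negative cells. Of 6 compared, Ccrl2 passed the 2-fold size, at 1292 against 342 CPM in library 2 and 4404 against 2609 CPM in library 4 (mean log2 ratio 1.32). CCRL2 is an atypical receptor that presents the attractant chemerin and does not signal to migration itself. Cxcr2 was 562 against 778 CPM and 883 against 1184 CPM (-0.44), lower in the positive cells of both libraries but under 2-fold. Ccr1, a receptor for CCL3 itself, was 779 against 783 CPM and 1455 against 1635 CPM (-0.09), and Cxcr4, which retains neutrophils in bone marrow, 166 against 192 CPM and 344 against 385 CPM (-0.18).

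Cytokine genes formed the next group. Of 18 compared, 6 were past 2-fold higher (Il23a, Il1a, Tnf, Il1rn, Spp1 and Csf1), none was past 2-fold lower, and the median log2 ratio was 0.56. Il1a, encoding the alarmin interleukin 1 alpha, was 580.5 against 71.9 CPM in library 2 and 666 against 197 CPM in library 4 (2.28), and 48.0% of positive against 15.2% of negative cells held a UMI. In library 3 it was 187 against 109 CPM, with overlapping counting intervals. Il23a, which encodes the p19 subunit of interleukin 23, was 120.4 against 15.8 CPM and 201 against 30.1 CPM (2.37), and its UMIs occurred in 19% of positive and 4.76% of negative cells. In library 2 Il23a was lower in the other gates, at 6.79 CPM in macrophages and 2.13 CPM in endothelial cells.

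Tnf, encoding tumour necrosis factor, was higher in the positive cells of every library. Its levels were 1687 against 441 CPM in library 2, 1072 against 174 CPM in library 4, 2694 against 938 CPM in library 3 and 1545 against 149 CPM in library 1 (mean log2 ratio of libraries 2 and 4, 2.23). The macrophage gate, not chosen for Ccl3, held 194 to 236 CPM of Tnf in libraries 1 to 3 and 170.0 CPM in library 4. Ccl3-negative neutrophils lay below that gate in library 1, close to it in library 4 and above it in libraries 2 and 3. Macrophages with a Ccl3 UMI held 260, 297, 290 and 223 CPM in libraries 1 to 4, below the positive neutrophils of the same library. Il1rn, encoding the interleukin 1 receptor antagonist, was higher along with its agonist, at 1610 against 619 CPM and 1416 against 692 CPM (1.19). Il1b, the most abundant cytokine transcript of the list, was 6231 against 3030 CPM in library 2 but 21106 against 19776 CPM in library 4, a far smaller difference, though the counting intervals (20596 to 21626 and 19275 to 20286 CPM) did not overlap. Csf1, the macrophage growth factor, was 295 against 171 CPM and 546 against 221 CPM (1.01), and its call was lost under 8 alternatives, among them leaving out library 4 and using library 3 as well. Spp1 (osteopontin) was 625 against 305 CPM and 110.4 against 40.1 CPM (1.14).

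**Figure D3:**
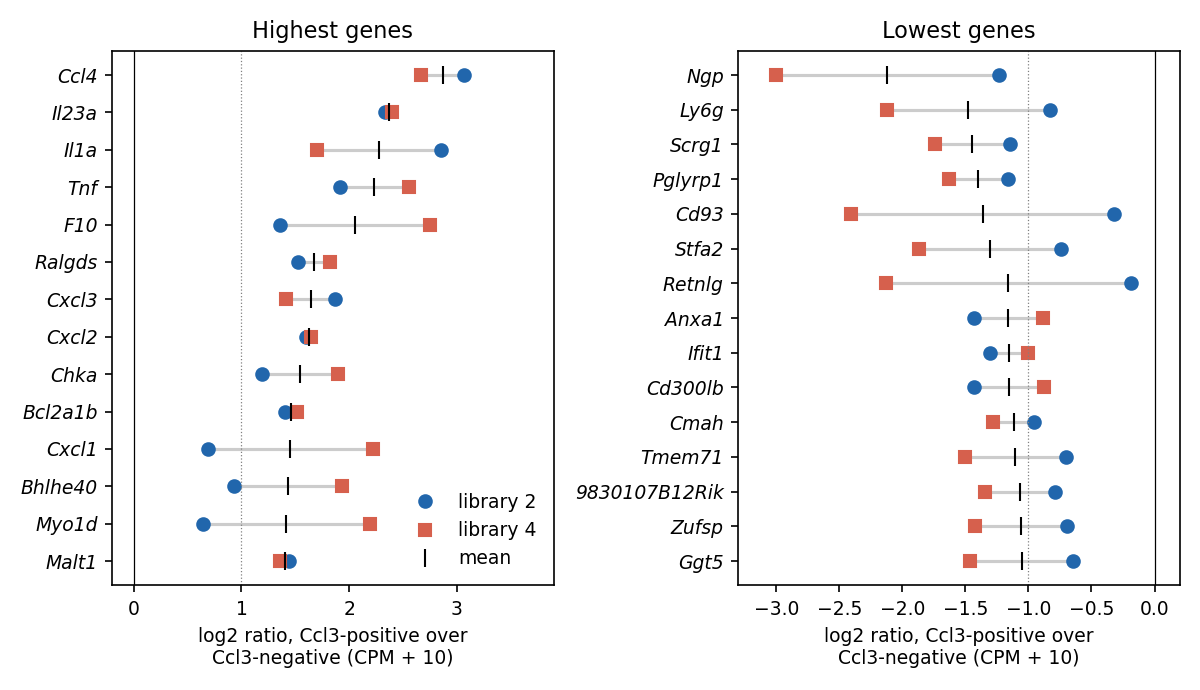
Log2 ratios of (CPM + 10), Ccl3-positive over Ccl3-negative neutrophils (x axis), for the highest and lowest genes (y axis) among those with the same sign in both libraries. Circles are library 2, squares library 4, black ticks the mean and dotted lines 2-fold. Il23a, Cxcl2 and Malt1 lie close in both libraries, while Retnlg differs widely between them.

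Genes of the NF-kB pathway, most of them its targets and feedback inhibitors, were mostly higher by less than 2-fold. All 31 compared had a mean log2 ratio above 0, with a median of 0.59, and 4 passed 2-fold (Tnfaip3, Icam1, Nlrp3 and Ccrl2). By library, 30 were above 0 in library 2 and 26 in library 4. Nfkb2, Relb, Tnfaip2, Irf1 and Plaur were below 0 in library 4, among them Tnfaip2 at 3822 against 4368 CPM. Tnfaip3, encoding the feedback inhibitor A20, was 885 against 319 CPM in library 2 and 857 against 415 CPM in library 4 (1.24). Icam1, an adhesion molecule, was 379.7 against 157 CPM and 1146 against 478 CPM (1.24), and Nlrp3, the inflammasome sensor, 894 against 299 CPM and 838 against 485 CPM (1.16). The calls of Icam1 and Nlrp3 were lost with library 3 used as well, and those of Nlrp3 and Ccrl2 without library 2. Nfkbia, encoding the inhibitor I kappa B alpha and the most abundant member, was just below 2-fold, at 4547 against 2053 CPM and 6076 against 3502 CPM (0.97). At the low end Nfkb2 was equal in the mean (0.00), with 106 against 75.5 CPM and 94.2 against 130.4 CPM. Malt1, which encodes a paracaspase that activates NF-kB and was not on the list, was among the 15 highest genes, at 157 against 51.5 CPM and 257 against 93.6 CPM (1.40).

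Genes that block or promote cell death were mostly above 0. Of 19 compared in the list of survival and apoptosis, 5 passed 2-fold higher (Bcl2a1a, Bcl2a1b, Bcl2a1d, Cflar and Cdkn1a) and 18 had a ratio above 0, with a median of 0.52. Bcl2a1b, an anti-apoptotic BCL2 relative, was 1027 against 380.4 CPM in library 2 and 831 against 284 CPM in library 4 (1.46). Bcl2a1a and Bcl2a1d are near-identical copies of the same gene, so the division of reads among the 3 copies is uncertain although all had ratios above 1. Cflar, an inhibitor of caspase 8, was 595 against 323 CPM and 318 against 134 CPM (1.03). Its call was lost under 8 alternatives and that of Cdkn1a under 4, in both cases also without library 4. Bcl2l11, which promotes cell death, was also above 0 but under 2-fold, at 565 against 321 CPM and 234 against 114 CPM (0.89). Mcl1, on which neutrophil survival depends, was the most abundant of the list and differed little, at 3145 against 2433 CPM and 3202 against 3124 CPM (0.20).

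A few genes of lipid storage and lysosomes were also higher. In the lysosome and lipid list 3 of 20 genes passed 2-fold higher, Plin2 and Cstb among them (median 0.33). Plin2, which coats lipid droplets, was 1693 against 968 CPM in library 2 and 971 against 381 CPM in library 4 (1.06). The calls of Plin2 and Cstb were lost under 6 and 5 alternatives, in both cases also without library 4. Hilpda, a hypoxia-induced inhibitor of lipolysis on droplets, was 1344 against 599 CPM and 309 against 100.3 CPM (1.34), and was the only gene past 2-fold among 27 hypoxia and glycolysis genes (median 0.27). Fth1, encoding ferritin heavy chain, was the third most abundant transcript of the positive cells in both libraries and stood at 55618 against 37010 CPM and 26880 against 15478 CPM (0.69).

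Tissue factor and factor X, which act together at the start of coagulation, were both among the higher genes. F10, encoding factor X, was 327 against 122 CPM in library 2 and 259.8 against 30.1 CPM in library 4 (2.05). F3, encoding tissue factor, was 115 against 18.9 CPM in library 2 and 198 against 127 CPM in library 4 (1.36). F10 passed 2-fold in each library and F3 in library 2 only, and the call of F3 was lost without library 2. Hcar2, a receptor for niacin and ketone bodies, was 623 against 204 CPM and 364 against 187 CPM (1.24), and its call was lost without library 2.

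Among the 15 highest genes not yet described, Ralgds, Chka and Bhlhe40 had moderate levels in both libraries. Ralgds, an exchange factor for Ral GTPases, was 132 against 39.3 CPM and 179 against 43.5 CPM (1.67). Chka, encoding choline kinase alpha, was 180.1 against 73.4 CPM and 139.6 against 30.1 CPM (1.54), and the transcription factor gene Bhlhe40 was 787 against 408.5 CPM and 208 against 46.8 CPM (1.43). Myo1d had 0 UMIs in the negative cells of library 4, where 11 UMIs in the positive cells gave at least a 3.56-fold higher level against a limit of 3 counts. The call of Myo1d was lost under 5 alternatives and that of Bhlhe40 under 2, in both cases also without library 4.

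Granule and blood neutrophil genes led the lower side. Of 19 genes of secondary and tertiary granules, which neutrophil precursors make in bone marrow, Ngp, Pglyrp1 and Anxa1 passed 2-fold lower, Chil3 passed 2-fold higher, and the median log2 ratio was -0.36. Ngp, encoding neutrophilic granule protein, was 1408 against 3322 CPM in library 2, and in library 4 it had 0 UMIs in positive and 21 UMIs in negative cells, at least 7.21-fold lower against a limit of 3 counts. Pglyrp1, a peptidoglycan recognition protein stored in granules, was 533 against 1206 CPM and 386.5 against 1217 CPM (-1.40). Anxa1, encoding the pro-resolving protein annexin A1, was 285 against 785 CPM and 166 against 314 CPM (-1.16). In library 3 the order of Anxa1 was the opposite, at 369 against 337 CPM, and its call was lost without library 2 or with library 3 used as well. Chil3 was equal in library 2 (3303 against 3248 CPM) and differed in library 4 only (497 against 117 CPM), and its call was lost under 7 alternatives. Lcn2, the most abundant member, was alike in library 2 at 10028 against 10000 CPM and was 870.4 against 1201 CPM in library 4.

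Of 27 genes of mature blood neutrophils, 5 passed 2-fold lower (among them Retnlg, Ly6g, Stfa2 and Lrg1), none passed 2-fold higher with the same sign in both libraries, and the median was -0.33. Ly6g, the antigen used to stain mouse neutrophils, was 80.4 against 151 CPM and 13 against 90.3 CPM (-1.48), with 4 and 27 UMIs in library 4. The order of Ly6g was the opposite in libraries 1 and 3, at 320 against 223 CPM and 5.35 against 0 CPM, and its call was lost when library 3 was used as well or library 4 was left out. The ratio of Retnlg came almost wholly from library 4 (1023 against 4522 CPM), whereas in library 2 it was 25173 against 28709 CPM. Retnlg was also lower in the positive cells of library 3, at 657 against 2985 CPM. It had the opposite order in library 1, at 14757 against 11332 CPM. The calls of Retnlg, Stfa2 and Lrg1 were lost under 3, 4 and 5 alternatives, each also without library 4. Gm5483, a stefin-like gene of the same list, had the opposite order in both libraries, at 2530 against 1466 CPM and 2744 against 1201 CPM, just under the 2-fold size (0.98).

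Of 32 genes of the type I interferon response, Ifit1 alone passed 2-fold lower. A mean ratio below 0 was found for 29 of the 32, of which 25 were below 0 in both libraries, and the median was -0.49. Ifit1 was 3.72 against 24.0 CPM in library 2 and 526 against 1067 CPM in library 4 (-1.16), and it was at 0 in both groups of library 3. Its call was lost under 4 alternatives, among them leaving out library 4 and using library 3 as well. Isg15, a ubiquitin-like modifier, was 23 against 54.1 CPM and 572 against 983 CPM (-0.87), and Ifitm3, the most abundant of the list, was 916 against 1524 CPM and 5352 against 8063 CPM (-0.66). The 21 genes of the interferon gamma response had a median of 0.03, with 11 above 0 and 0 past 2-fold in either direction.

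**Figure D4:**
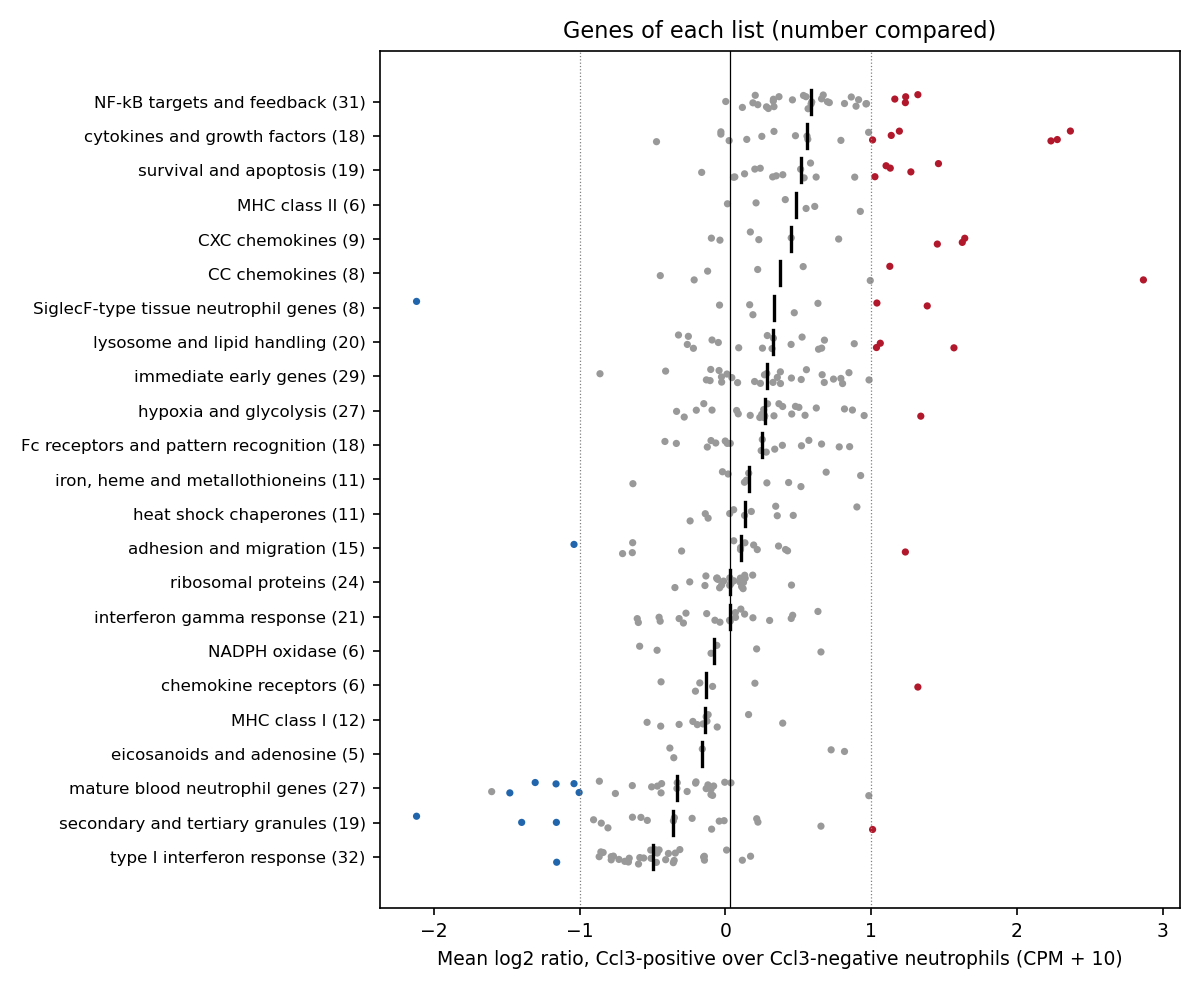
Mean log2 ratio of Ccl3-positive over Ccl3-negative neutrophils (x axis) for every compared gene of each list with 5 or more such genes (y axis, number compared in parentheses). Red points are past 2-fold higher and blue points past 2-fold lower with the same sign in both libraries, black bars are list medians and the thin vertical line is the median of all genes, 0.03. All 31 NF-kB genes lie above 0 and 29 of 32 type I interferon genes below it.

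The remaining lists had few genes past 2-fold. Ribosomal protein genes had a median of 0.03 over 24 genes and the NADPH oxidase subunits -0.08 over 6. Immediate early genes, which tissue dissociation can induce, had a median of 0.28 over 29 genes, with 0 past 2-fold. Heat shock chaperones had a median of 0.13 over 11 genes. Fc receptor and pattern recognition genes had a median of 0.25 over 18 genes, with 0 past 2-fold and Clec5a highest at 0.85. MHC class I genes had a median of -0.14 over 12 genes, and the 6 MHC class II genes were all above 0 with a median of 0.48. Among markers of other cell types, the median was 0.06 for macrophages (8 genes), -0.03 for endothelial cells (4), 0.13 for fibroblasts (4), -0.18 for monocytes (6), -0.26 for T/NK cells (3) and 0.18 for erythroid cells (3). The only smooth muscle marker compared, Acta2, was at 0.50. None of these markers passed 2-fold. The libraries differed in direction, with macrophage markers above 0 for 1 of 8 in library 2 and 7 of 8 in library 4, endothelial and fibroblast markers for 4 of 4 in library 2 and 1 of 4 in library 4, and erythroid markers for 3 of 3 and 0 of 3. MHC class II genes summed to 149 against 91.8 CPM in library 2 and 5173 against 3244 CPM in library 4. In the list of SiglecF-type tissue neutrophils Fnip2 and Tnfrsf23 passed 2-fold higher and Ngp lower, of 8 compared. The name Siglecf was not found in the matrix, so that gene was not among them. Fnip2 rested on 12 and 1 UMIs in library 4, and the calls of Fnip2 and Tnfrsf23 were lost under 3 and 7 alternatives, in both cases also without library 4.

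Several of these genes were also graded with the amount of Ccl3 in the cell. The groups below were made with Ccl3, which the rule used, and most of the genes were picked from the comparison above, so the values describe that comparison further and are no separate support for it. Neutrophils of library 2 were divided by their Ccl3 UMIs into groups of 0 (372 cells), 1 (195), 2 to 4 (211), 5 to 19 (315) and 20 or more (263), with median depths between 4379 and 4800 UMIs. Across these groups Ccl4 was 476, 763, 1421, 3364 and 9283 CPM, Cxcl2 was 5151, 6014, 7866, 13445.5 and 31003 CPM and Tnf was 441, 742, 1023, 1610 and 2965 CPM. Each step was higher than the one before for these 3 genes. Cxcl1 was not graded in this way, at 118, 167, 248, 193 and 182 CPM.

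The same division of library 4 gave 93, 18, 17, 23 and 25 cells. There Ccl4 was 889.6, 892, 3966, 4963 and 9578 CPM, Cxcl2 was 7017, 10731, 13018, 25272 and 30113 CPM and Tnf was 174, 264, 532, 836 and 1923 CPM. In the top group the levels of Ccl4 and Cxcl2 were close in both libraries. Cxcl3 was highest in the middle of the range in library 4, at 151, 165, 918, 519 and 246 CPM, and Il1a did not go up step by step there, at 197, 49.5, 147, 1127 and 922 CPM. Nfkbia went from 2053 to 6758 CPM over the groups of library 2 and from 3502 to 7480 CPM over those of library 4.

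Of the genes that were lower in positive cells, Isg15 was 54.1, 37.6, 28.4, 18.9 and 12.6 CPM over the groups of library 2, and 983 CPM in the lowest and 351 CPM in the highest group of library 4. Cxcr2 was 778 CPM at 0 Ccl3 UMIs and 412 CPM at 20 or more in library 2, and 1184 and 474 CPM in library 4. Ngp was 3322 and 654 CPM at the ends of the range in library 2. Retnlg was graded in library 4 only, from 4522 to 360.0 CPM, against 28709 and 23588 CPM at the ends in library 2. Il1b was 3030 and 9356 CPM at the ends in library 2, and 19776 and 20596 CPM in library 4. Fabp4, an endothelial transcript, was 1712, 1902, 2012, 2117 and 1880 CPM in library 2 and had no such gradient.

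**Figure D5:**
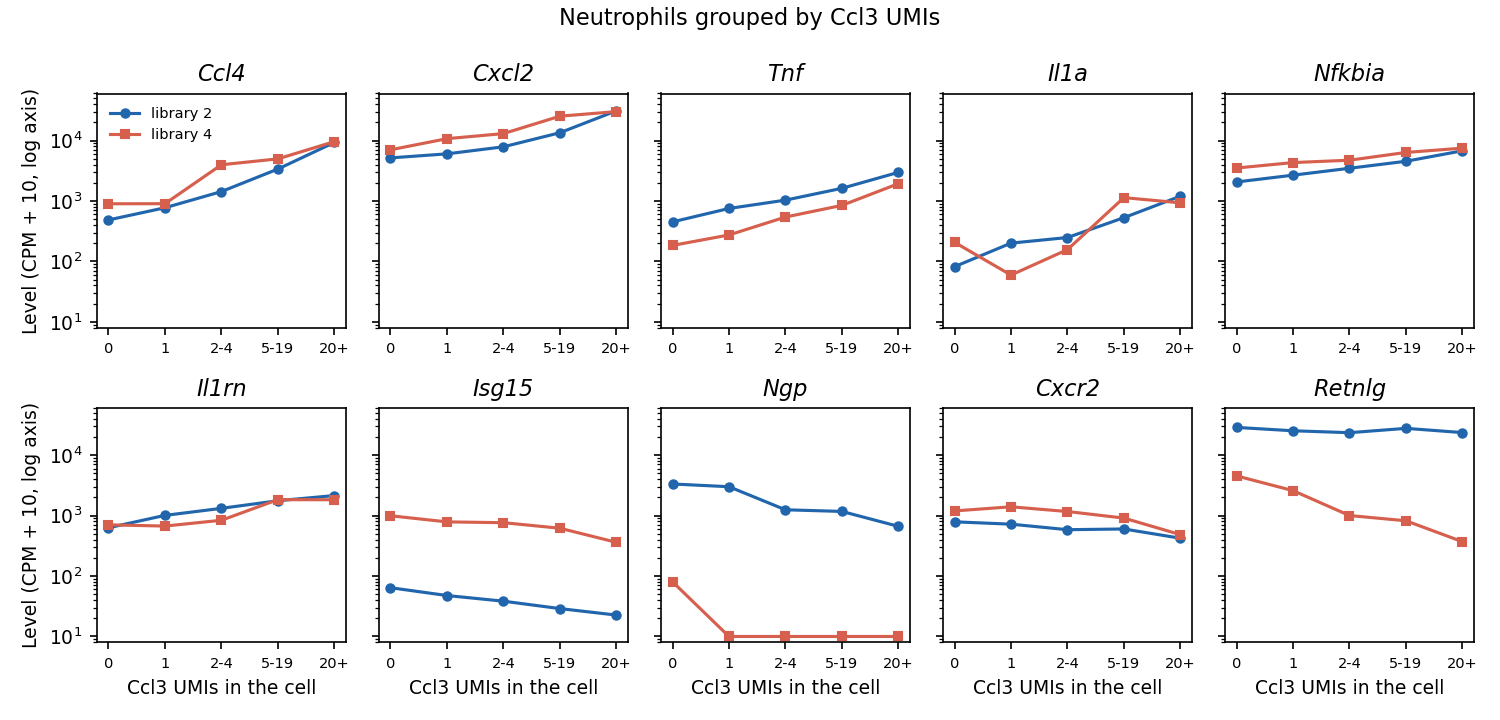
Levels of 10 genes (CPM + 10, log y axis) in neutrophils grouped by the number of Ccl3 UMIs in the cell (x axis), for library 2 (circles) and library 4 (squares). The 6 genes Ccl4, Cxcl2, Tnf, Il1a, Nfkbia and Il1rn end higher than they begin in both libraries, Isg15, Ngp and Cxcr2 end lower, and Retnlg ends lower mainly in library 4.

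The positive neutrophils of different libraries were unlike each other in genes that the rule did not touch. Those of library 4 held interferon-induced transcripts that were nearly missing in library 2. Gbp2, a guanylate-binding protein, was at 4709 CPM in library 4 and 15.3 CPM in library 2, and Cxcl10, which attracts T cells through CXCR3, at 6433 and 75.1 CPM. Cxcl9, another CXCR3 ligand, was at 783 and 0.827 CPM. The Ccl3-negative neutrophils differed likewise, with Gbp2 at 6331 and 25.0 CPM and Cxcl10 at 8361 and 25.0 CPM. So did the endothelial gate, with Gbp2 at 1236 and 46.7 CPM and Cxcl10 at 2537 and 32.9 CPM. Cxcl9 was at 9693 and 17.6 CPM in that gate, above its level in the positive neutrophils. The libraries thus differed in all 3 of these populations. Marker sums of other cells in the positive neutrophils were also higher in library 4 than in library 2. They were 1520 against 275 CPM for macrophages, 3452 against 549 CPM for monocytes and 250 against 3.31 CPM for T/NK cells. Their part was not tested.

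Library 2 in turn held granule and blood neutrophil transcripts at far higher levels than libraries 3 and 4. Retnlg, a resistin-like secreted protein, was at 25173 CPM in its positive cells against 1023 CPM in library 4 and 657 CPM in library 3. Lcn2 (lipocalin 2) was at 10028, 870.4 and 1197 CPM. The 7 positive cells of library 1 also held much of both, with Retnlg at 14757 CPM and Lcn2 at 6020 CPM. Cd177, a surface protein of neutrophils, was at 863 CPM in library 2 and 32.5 CPM in library 4. These transcripts were also found in the endothelial gate of library 2, with Retnlg at 149 CPM, Lcn2 at 688 CPM and Cd177 at 3.76 CPM. Whether they were free RNA there was not tested. The 54 positive cells of library 3 had Lyz2 at 3683 CPM against 285 CPM in library 2, and Siglec5 at 208 against 6.00 CPM. Acp5 was at 160.4 CPM in library 3 against 5.58 CPM in library 2, and Itgax at 123 against 7.65 CPM. The Ccl3-negative neutrophils differed likewise in Lyz2 (4287 against 1022 CPM) and Siglec5 (109 against 4.59 CPM). Macrophage transcripts moved with these values, with Apoe at 1016 against 57.5 CPM in the positive cells. Fibroblast transcripts did so more strongly, with Col1a2 at 310.0 against 9.10 CPM and Postn at 176 against 3.72 CPM in the positive cells and at 951 against 52.1 CPM and 449 against 34.0 CPM in the endothelial gate. The part of either was not tested. Which grafts these libraries came from was not determined, so the differences cannot be read as allogeneic against syngeneic.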

How the data were processed

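Single-cell 3′ libraries (10x Genomics, v3 chemistry) were made by the authors from 4 heart grafts, and reads were aligned to mm10 (Ensembl 92) with Cell Ranger 3.0.0. The authors deposited UMI counts, not normalized, as a merged matrix of 30905 genes and 53824 cells. The submitters' processing notes also name CASAVA 1.8 and Seurat. No column held values of other samples.

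The members and gene lists were chosen with earlier results of these data known. Cells were kept with over 200 genes and under 20% mitochondrial UMIs. Doublets were not removed in the main analysis. As an alternative, the 5% of cells of each library most like simulated doublets were left out, which marked 33 of 984 members in library 2, 1 of 83 in library 4 and 0 elsewhere. Counts were summed per library and group and scaled to CPM of non-mitochondrial UMIs, and log2 ratios used a pseudocount of 10 CPM. The text names the 15 highest and 15 lowest genes with the same sign in libraries 2 and 4, list genes past 2-fold, the 3 most abundant genes of a list, and chemokines and receptors at 20 CPM or more. Other genes were named after their values were seen, among them F3, Hcar2, Gm5483, Clec5a and the genes compared between libraries. A few genes that the rule names are not reported here, also in the plots. Of 540 list names, 529 were found. Ccl3, S100a8, S100a9, Csf3r and Cdh5 were left out of the comparison. The NF-kB consensus was searched on both strands. The ratio calculation was tested on simulated data. Intervals are exact (Poisson for levels, Clopper-Pearson for shares, 95%) and cover counting error only. The calculations ran in scipy 1.17.1 and scikit-learn 1.9.0, with numpy 2.4.6 and pandas 2.3.3 for the tables, under Python 3.11.15. Promoters came from RefSeq (GRCm38.p6) and positions from the GENCODE annotation of GRCm38.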

Additional observations from a re-analysis of the deposited data

How the results depend on the processing

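Most members came from library 2, the ratios weight libraries 2 and 4 equally, and there is no replicate check, and low genes of library 4 rest on few UMIs. The ratios already pair both neutrophil groups within a library. No test over these pairs was made, and the replicate numbers of the grafts are tied to no library, so grafts could not be paired. The number of members was 1457 with S100a8 and S100a9 at 2% or more, 1559 with Cdh5-positive cells kept (chosen after seeing the data), 745 with S100a8 and S100a9 at 10% or more, 711 without cells holding C1qa, C1qb, C1qc or Csf1r UMIs, and 144 to 1121 with a library left out, the lowest without library 2. The share with Ccl3, 67.4% over all libraries, was 54.2% at a minimum of 2 Ccl3 UMIs, 63.8% at 10% S100a8 and S100a9, 70.8% without cells holding macrophage UMIs, 46.2% at 1000 UMIs per cell, and 45.3% to 69.8% with a library left out, the lowest without library 2 and the highest without library 4.

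The 66 higher genes became 102 with members of at least 2 Ccl3 UMIs, 132 with a pseudocount of 1 CPM, 23 with one of 50 CPM, and 63 to 222 with a library left out, the lowest without library 4 and the highest without library 2. The 20 lower genes became 41 without cells holding macrophage UMIs (library 2 only), 50 with members of at least 2 Ccl3 UMIs, 57 with libraries pooled, 40 with the negative cells weighted to the depth of the members, 73 and 4 with the other pseudocounts, 20 to 110 with a library left out (110 without library 2), and, in alternatives chosen after seeing the data, 32 with library 3 used as well and 38 with S100a8, S100a9 and Ccl3 left out of the total. Of the 66 higher and 20 lower genes, 55 and 14 kept their call without library 2, 28 and 7 without library 4, 29 and 8 without cells holding macrophage UMIs, and 33 and 7 with libraries pooled. Each of these settings left only 1 ratio per gene, so the condition of the same sign in both libraries fell away. Their counts are therefore of another form than the main 66 and 20. Over the 16 alternatives, among which leaving out library 1 or 3 could change no call, 15 higher genes kept theirs (Ccl4, Il23a, Il1a, Tnf, F10, Ralgds, Cxcl3, Cxcl2, Chka, Bcl2a1b, Malt1, Hilpda, Tgif1, Tnfaip3 and Il1rn), as did Pglyrp1 and Ngp among the lower. Ccl5 turned to -0.056 without cells holding macrophage UMIs and to -0.038 without doublet-like cells. No other gene past 2-fold among the 128 followed turned its direction under these alternatives.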
